A study of Takifugu obscurus and Periophthalmus magnuspinnatus and Gallus gallus with 6 samples.

Results

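Mature oligodendrocytes of the fugu spinal cord were taken as droplet barcodes that carried both gjb1a, a connexin gene, and hapln2, which encodes a link protein of the matrix around myelinated axons. A barcode counted as a member when it held more than 3000 UMIs in all (UMIs are molecule tags, so that each stands for 1 captured transcript), at least 5 UMIs of gjb1a, at least 2 of hapln2 and none of gpr17, a receptor gene of precursors that are about to differentiate. The members were thus chosen by measured levels of these genes. The rule found 1635 barcodes among the 5182 fugu barcodes above 3000 UMIs, and 29113 barcodes passed the UMI minimums over the 6 libraries of the series. The study compared spinal cord cells of fugu, mudskipper and chicken by droplet sequencing of transcript 3′ ends, and the 2 fugu libraries were used here. The fugu were juveniles at about 1 month after hatching, given as Takifugu obscurus in the sample labels and as a hybrid of T. obscurus and T. rubripes in the study's methods, untreated and mapped to the T. rubripes genome. Rostral cord at the level of the pectoral fin was taken from several animals and pooled for each library, then digested with pronase and sorted for live cells by exclusion of propidium iodide. The animals of a library cannot be separated, so that a library is the replicate, and p-values measure the spread between these 2 pools. Against single groups of barcodes that spread was estimated over 6 groups at once, not over the groups compared alone.

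Oligodendrocytes wrap axons of the central nervous system in myelin, a stack of membrane rich in lipid and in a few abundant proteins, which speeds the conduction of impulses. They arise from dividing precursors under the transcription factors Olig2, Sox10 and Nkx2.2, pass through a short Gpr17-positive stage and then switch on Myrf, which drives the myelin genes. Mature oligodendrocytes are joined to each other and to astrocytes by gap junctions made of connexins, and Hapln2 in mammals ties hyaluronan to proteoglycans at the nodes of Ranvier.

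Library 1 held 862 members of 2610 barcodes above the UMI minimum (33.0%, 95% exact binomial interval 31.2 to 34.9) and library 2 held 773 of 2572 (30.1%, 28.3 to 31.9). The mean share was 31.5% ± 2.10 (SD, n = 2), and the intervals, which cover counting error only, overlapped. Members summed to 5225554 and 4704752 UMIs, with a median of 5419 and 5488 UMIs and of 1994.5 and 1980 detected features in a barcode, against 5391.5 and 5496 UMIs in all other barcodes. The 2 libraries shared 0 barcodes, and Scrublet, a doublet caller, marked 22 and 15 members as likely doublets, which were kept because the rule does not remove them. The share moved with the gate, to 36.9% with 1 UMI of hapln2 as the minimum, 22.5% with 4, 27.5% with 10 UMIs of gjb1a, and 24.7% when each barcode was first thinned to 3000 UMIs.

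The genes that set the gate are given as values only. In members gjb1a reached 3770 and 3888 CPM (UMIs per 1000000 of the group's summed UMIs) and hapln2 1477 and 1395 CPM. A member held from 5 to 107 UMIs of gjb1a in library 1 and from 5 to 136 in library 2, with medians of 18 and 20, so that few members lay near that minimum. Only 3 and 6 members had exactly 5 UMIs of gjb1a, while 6 and 7 barcodes with 4 were left out. The hapln2 minimum ran through a continuous distribution, since 134 and 113 members had exactly 2 UMIs and 148 and 130 barcodes that met the other conditions had 1. Neighbours across that edge carried alike levels of mbpa (18076 and 14517 CPM with 2 UMIs, 18271 and 14853 with 1) and of cd59a (8733 and 8853 with 2, 9184 and 9381 with 1). A UMI of gpr17 kept out 3 and 3 barcodes.

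**Figure D1:**
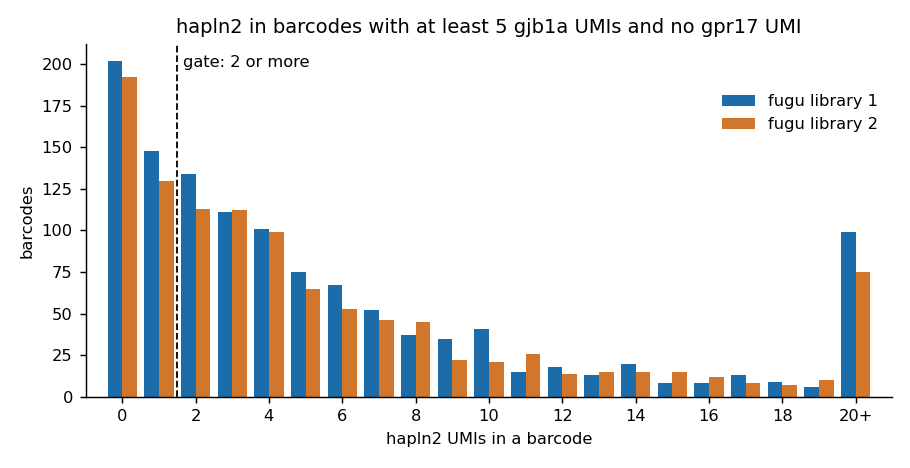
Number of barcodes (y axis) by their hapln2 UMIs (x axis, 20 and above together) among fugu barcodes with at least 5 UMIs of gjb1a and none of gpr17, with 1 bar for each library. The dashed line is the minimum of 2 UMIs. Counts fell without a gap from 202 and 192 barcodes at 0 UMIs, and 99 and 75 barcodes had 20 or more.

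Members were compared with all other fugu barcodes above the UMI minimum, which asks what sets this gate apart from the rest of the cord. Markers of mature oligodendrocytes that the gate did not use were checked. Among them plp1b, encoding proteolipid protein, the main membrane protein of central myelin in mammals, was at 79690 and 81080 CPM against 17249 and 16253. The level of mbpa, encoding myelin basic protein, was 15800 and 12483 CPM against 3753 and 2793. Of the same markers olig1 was lower, with 2 and 0 UMIs in members against 89 and 60. The log2 fold changes of summed counts were 2.62 ± 0.10 (SE) for plp1b and 2.47 ± 0.18 for mbpa (adjusted p = 3.6e-05 and 0.0001, edgeR's quasi-likelihood test with Benjamini-Hochberg adjustment over 13941 features). Members were above the others in both libraries for either gene, and no level of one group overlapped the other. Calls needed an adjusted p below 0.05 and a change of more than 0.25, up or down, on the log2 scale. By that rule 3798 features were higher in members, 27.2% of those tested, and 4985 lower, 35.8%, so that 63% of all features were called and a call by itself says little of any list. Fold changes were scaled by TMM, which lay 0.36 above the ratio of CPM on the log2 scale here, and with library size alone the median of all features moved from -0.04 to -0.40 and the higher share of the calls from 43.2% to 26.7%.

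The other barcodes held a further population with much myelin mRNA. There were 784 such below-gate barcodes, with at least 2 UMIs of gjb1a, none of gpr17 and too little hapln2 or gjb1a for the gate. They carried plp1b at 81183 and 86834 CPM beside 79690 and 81080 CPM in members, while barcodes in none of the groups described here had 1991 and 2158 CPM and barcodes of at most 100 UMIs, which hold mostly free RNA, had 10796 and 10472 CPM. With the below-gate barcodes left out of the others, the log2 fold change of plp1b was 5.93, of mbpa 6.03 and of cd59a 5.85, so that the values against all other barcodes understate the distance to cells without myelin transcripts.

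**Figure D2:**
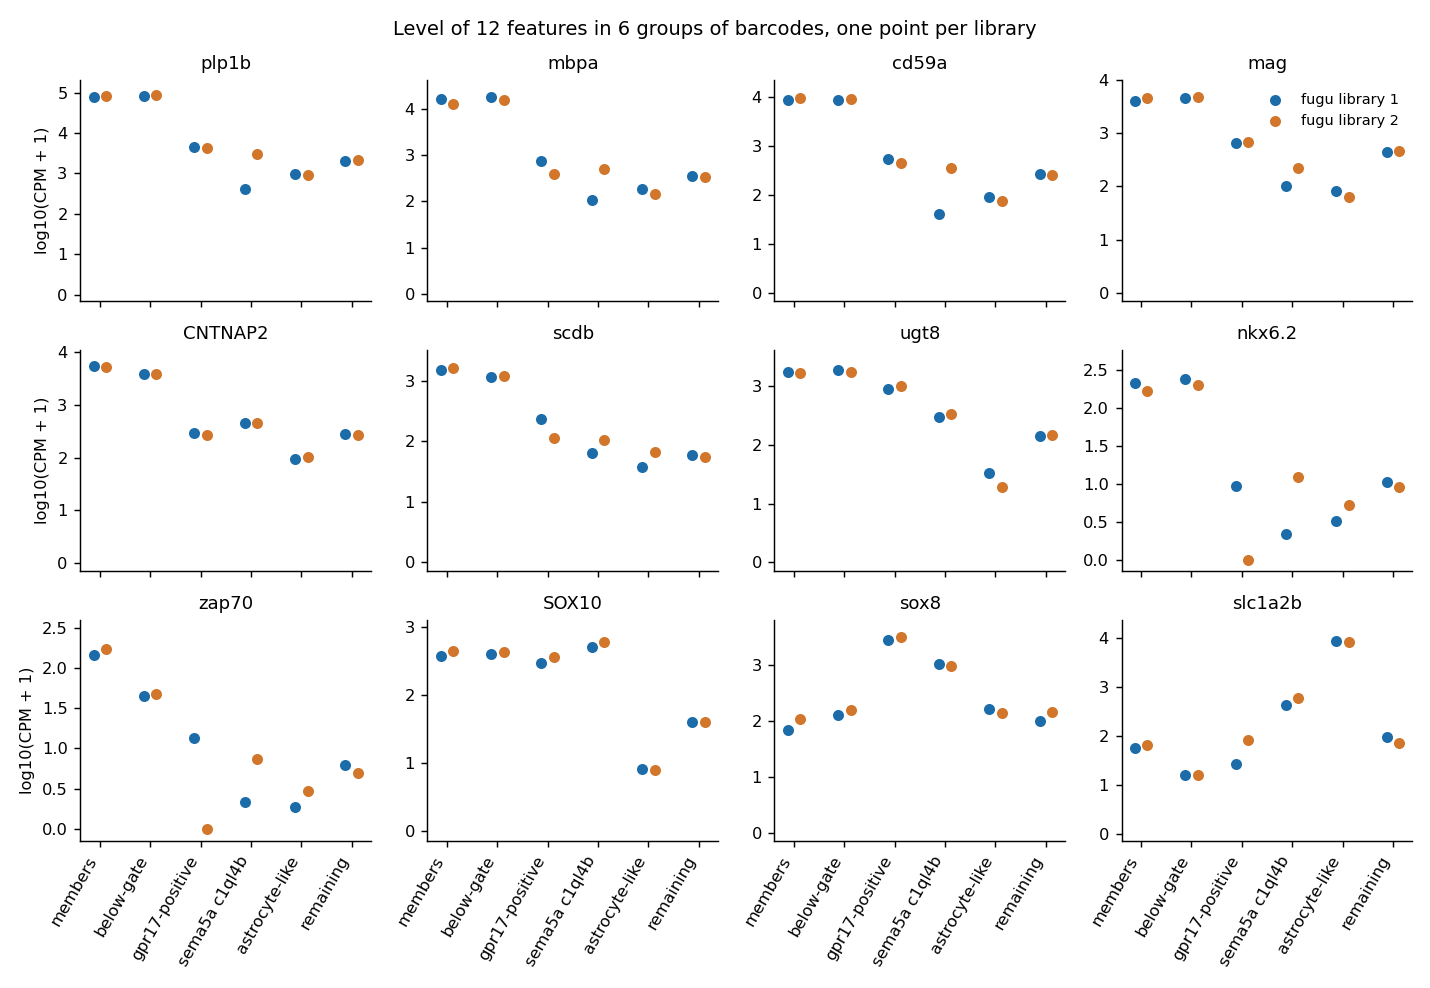
Level of 12 features as log10(CPM + 1) (y axes) in 6 groups of fugu barcodes (x axes), with 1 point for each library. Members and below-gate barcodes stood together for plp1b, mbpa, cd59a and mag, and members were above below-gate barcodes for zap70 in both libraries. Levels of sox8 were highest in the gpr17-positive barcodes. Those of slc1a2b were highest in the astrocyte-like barcodes, which were chosen by that gene.

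Genes of the myelin membrane were among the most abundant in members. The 10 features of highest CPM, a measure that UMIs of 3′ ends give without scaling by length, included plp1b, mbpa, cd59a, which encodes a membrane-anchored inhibitor of complement, cldnk and cldn19, which encode claudins of tight junctions, ninj2, an adhesion gene, and the tetraspanin gene cd82a. The level of cd59a was 9035 and 9545 CPM against 1906 and 1727 in all other barcodes, a log2 fold change of 2.72 ± 0.10 (adjusted p = 3.6e-05). The level of cldnk was 8356 and 8340 CPM against 2364 and 2053, with a log2 fold change of 2.28 ± 0.10. Both libraries of members lay above both libraries of the others for each of these genes. Myelin-associated glycoprotein, mag, which faces the axon, was at 4108 and 4560 CPM against 1169 and 1089 and rose by 2.30 ± 0.11, and the other proteolipid gene, plp1a, was at 764 and 718 CPM against 326 and 241 and rose by 1.75 ± 0.15. Both libraries of members were again above both of the others. The other myelin basic protein gene, mbpb, was sparse, at 3.64 and 2.98 CPM against 1.11 and 1.15 (1.90 ± 0.36).

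Over the list of myelin membrane genes, of 25 tested features 16 were higher and 5 lower in members, with a median log2 fold change of 1.71, beside -0.04 over all features. The 5 that fell were gpm6bb, cd9a, cldn11a, jam3a and jam3b. The tetraspanin cd9b was 314 and 257 CPM against 75.3 and 60.9 (log2 fold change 2.43 ± 0.15), while cd9a had a log2 fold change of -3.47. Neither cnp, which encodes a phosphodiesterase of myelin (log2 fold change 0.03), nor tspan15 (-0.67) passed. The remaining features of highest level were dhrs12la, a gene of the short-chain dehydrogenase family, at 16098 and 15319 CPM against 4552 and 4016, CNTNAP2, which encodes a partner of potassium channels beside the node, at 5372 and 5201 CPM against 964 and 848, and crbn, encoding the substrate receptor of a ubiquitin ligase, at 4756 and 5379 CPM against 7106 and 7141. Levels of dhrs12la (2.24 ± 0.10) and CNTNAP2 (2.91 ± 0.10) were above the others in both libraries, and crbn, though lower in CPM, did not pass (log2 fold change -0.13 ± 0.10, adjusted p = 0.31). With library size alone and with only features in at least 10% of barcodes, crbn passed as lower.

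Of the 10 called features with the largest rise and a UMI in at least 25% of members, ptgdsb.1, a gene of prostaglandin D synthase, came first at 968 and 654 CPM against 74.3 and 38.7 (4.21 ± 0.35, adjusted p = 0.00017). It was followed by zap70, which encodes a tyrosine kinase known from T-cell receptor signalling, at 143 and 169 CPM against 11.8 and 10.8 (4.14 ± 0.15, adjusted p = 3.6e-05). Both were higher in each library of members than in either library of the others. The others included gch1, the first enzyme of tetrahydrobiopterin synthesis (3.93 ± 0.18), TMBIM1 (3.38 ± 0.13), the acyltransferase gene agpat4 (2.96 ± 0.29), the stearoyl-CoA desaturase gene scdb (2.94 ± 0.10), nr1h4, the bile acid receptor gene (2.92 ± 0.18), CNTNAP2 (2.91 ± 0.10) and tpd52l1 (2.89 ± 0.10). Their adjusted p-values lay between 3.6e-05 and 0.00029.

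Among the 10 called features with the largest fall, members held 59 UMIs of the homeobox gene hoxb5b, at 6.89 and 4.89 CPM against 262 and 306 (-5.22 ± 0.19), and 91 of aqp1a.1, a water channel gene, at 7.85 and 10.6 CPM against 444 and 437 (-5.22 ± 0.16). The transcription factor gene klf4 was at 1.91 and 0.85 CPM against 69.9 and 120 (-5.71 ± 0.44), irx1b at 1.72 and 3.83 CPM against 122 and 122 (-5.11 ± 0.28), and the phosphatase gene dusp2 at 1.53 and 1.7 CPM against 51.5 and 93.9 (-5.13 ± 0.43). For each of these the levels of members lay far below both libraries of the others. The semaphorin gene sema4e was seen in members as 1 UMI and was higher in the others by a ratio of 283 (95% counting interval 50.7 to 11211), and gli1, a Hedgehog effector, as 3 UMIs, with a ratio of 103 (95% counting interval 35 to 500). The list of largest falls was completed by APOH (-5.28 ± 0.28), gulp1a (-5.25 ± 0.35) and soul5 (-5.14 ± 0.16).

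**Figure D3:**
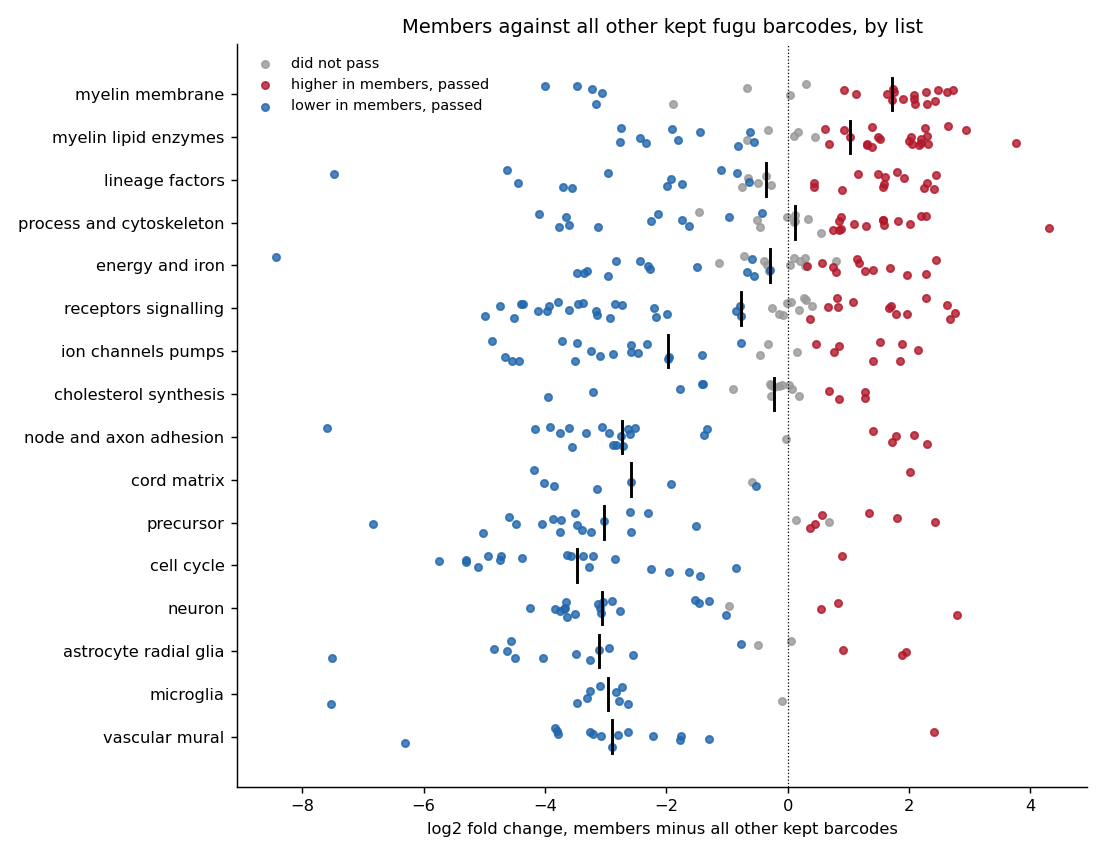
Log2 fold change of members against all other fugu barcodes above the UMI minimum (x axis) for each tested feature of 16 gene lists (y axis), coloured by whether it passed as higher, passed as lower or did not pass. Black bars are list medians, which were 1.71 for the myelin membrane, 1.02 for lipid enzymes, -3.47 for the cell cycle and -3.07 for neurons. Features with 0 UMIs in members stand at fitted values, which depend on the prior count.

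Enzymes of myelin lipids were mostly higher. In this list of 37 tested features 22 were higher and 10 lower in members, beside 27.2% and 35.8% of all features. The median log2 fold change was 1.02. The galactosyltransferase gene ugt8, which makes galactosylceramide, the typical glycolipid of myelin, was at 1774 and 1694 CPM against 498 and 414 (2.29 ± 0.11, adjusted p = 4.2e-05), and ENPP2, which encodes the secreted lysophospholipase autotaxin, at 4178 and 4279 CPM against 1222 and 1050 (2.26 ± 0.11). Members lay above the others in both libraries for either gene. The desaturase gene scdb was at 1519 and 1653 CPM against 276 and 257, whereas its related gene scd had a log2 fold change of -1.44. Among elongases of fatty acids, elovl1a (3.77 ± 0.74), elovl1b (2.2) and elovl6 (2.16) were higher and elovl5 (-2.76 ± 0.47) was lower. The aspartoacylase gene aspa, whose enzyme frees acetate from N-acetylaspartate in mammalian oligodendrocytes, was lower in members, at 23.2 and 23.8 CPM against 166 and 158 (-2.43 ± 0.11).

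Of 19 tested features of cholesterol synthesis 4 were higher and 5 lower in members, with a median log2 fold change of -0.23. Over all features 27.2% were higher and 35.8% lower, so calls were no more frequent in this list. The copies of the gene for HMG-CoA reductase, the rate-limiting enzyme, moved apart, with hmgcrb at 58.7 and 57.6 CPM against 31.5 and 30.5 (1.27 ± 0.12) and hmgcra at 4.78 and 4.25 CPM against 79.3 and 100 (-3.95 ± 0.21). Also higher was insig1, which holds back this pathway (12.6 and 15.3 CPM against 6.0 and 8.73, 1.28 ± 0.27). Against single groups of barcodes the list differed, with 11 higher and 0 lower of 19 against barcodes positive for sema5a and c1ql4b, where 25.5% and 23% of all features were called in these directions, and 1 higher and 16 lower of 19 against astrocyte-like barcodes, where 24.2% and 24.9% were.

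Of 31 tested transcription factors of the lineage 14 were higher and 12 lower, beside 27.2% and 35.8% of all features. MYRF, the activator of myelin genes, was at 190 and 167 CPM against 45.3 and 38.9 (2.45 ± 0.12, adjusted p = 4.2e-05), and nkx6.2, a homeobox gene of mature oligodendrocytes, at 210 and 168 CPM against 52.3 and 39.4 (2.40 ± 0.17, adjusted p = 0.0001). Levels of members were above those of the others without overlap. The files list SOX10 and sox10 as separate features, and both rose (1.91 ± 0.13 and 2.24 ± 0.16), as did zeb2b (1.57 ± 0.09), nkx2.2a (1.81 ± 0.17) and OLIG2 (1.58 ± 0.24). OLIG2 was low in absolute terms, at 37.9 and 31 CPM. Lower in members were tcf7l2, a Wnt effector gene of newly formed oligodendrocytes, at 6.32 and 4.25 CPM against 95.9 and 82.2 (-3.70 ± 0.20), and olig1, of which members held 2 UMIs and the others more by a ratio of 33.4 (95% counting interval 9.07 to 278).

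Precursor genes were mostly lower in members, 17 of 25 tested features and 6 higher, beside 35.8% and 27.2% of all features. The median log2 fold change of the list was -3.03 (-2.65 with 1 feature at 0 UMIs in members taken at its bound). The growth factor receptor gene pdgfra, which marks precursors, was at 0.574 and 1.06 CPM against 37.1 and 31.3 (-5.02 ± 0.31), and sox2 at 20.5 and 21 CPM against 370 and 404 (-3.86 ± 0.12). All 20 tested genes of the cell cycle were called, 19 of them lower, among them cdca3 at 0.765 and 1.06 CPM against 68.4 and 58.1 and pcna at 76.9 and 84.8 CPM against 162 and 211 (-0.85 ± 0.16). The exception was rrm2b, which encodes a ribonucleotide reductase subunit that also acts in resting cells (22.8 and 17.2 CPM against 14.2 and 13.6, 0.89 ± 0.20), and with library size alone it did not pass.

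Of 4 tested connexin features outside the gate 1 was higher and 3 lower in members, beside 27.2% and 35.8% of all features. The higher one is not reported here. Among the lower ones, gja1b, the main astrocyte connexin gene, was at 7.85 and 12.1 CPM against 307 and 306 (-4.59 ± 0.20). The neuronal connexin gene GJD2 was lower as well (1.53 and 1.7 CPM against 23.3 and 20.8, -3.40 ± 0.26), as was gjd1a (-2.67).

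Most adhesion features of the node and axon were lower, 18 of 24 tested and 5 higher, beside 35.8% and 27.2% of all features. The exceptions were mag, NFASC and nfasca, lgi3 and cadm4. With these 5 the list summed to more in members, 5424 and 5912 CPM against 2461 and 2361 in the others. NFASC, which encodes the glial neurofascin of the paranode among its products, was at 620 and 617 CPM against 258 and 225 (1.72 ± 0.10) and cadm4, encoding the glial partner of axonal adhesion molecules, rose by 1.78. The axonal genes cntnap1 (0.765 and 0 CPM against 10.2 and 8.81) and cntn1b (-3.60) fell. CNTNAP2, which the list does not hold, rose (2.91 ± 0.10). In the matrix list, besides hapln2, OMG, for oligodendrocyte myelin glycoprotein, was the only feature of 9 that was higher (18.4 and 15.3 CPM against 5.54 and 5.2, 2.01 ± 0.21), and tncb (3.64 and 6.59 CPM against 122 and 115, -4.18 ± 0.25) and bcan (69.1 and 70.1 CPM against 120 and 136, -0.52 ± 0.12), for tenascin C and brevican, were lower.

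Channels and pumps were mostly lower, 8 higher and 18 lower of 29 tested, with the sodium channel subunit gene scn1bb higher (825 and 834 CPM against 307 and 282, 1.86 ± 0.09) and mlc1, an astrocyte membrane gene, lower (5.74 and 9.56 CPM against 271 and 300, -4.87 ± 0.23). Of 45 receptor and signalling features 13 were higher and 23 lower, beside 27.2% and 35.8% of all features. FGFR1 was at 277 and 277 CPM against 58.6 and 46.9 (2.75 ± 0.13), PLCL1, a phospholipase C-like gene, at 523 and 479 CPM against 116 and 92.8 (2.62 ± 0.13), and gpr37a, whose mouse counterpart restrains the timing of differentiation, at 237 and 235 CPM against 65.7 and 58.6 (2.28 ± 0.10), each without overlap of the groups. The related gpr37l1b was at 0.765 and 2.55 CPM against 62.2 and 71 (-4.99 ± 0.36) and notch3 at 5.93 and 9.14 CPM against 113 and 154 (-3.79 ± 0.26).

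Calls among genes of energy and iron (12 higher and 14 lower of 37 tested) lay near the 27.2% and 35.8% of all features. In this list FTH1, encoding the heavy chain of ferritin, was at 2865 and 2938 CPM against 1142 and 1180 (1.68 ± 0.09). The level of ndrg1a was 40.8 and 28.7 CPM against 10.2 and 6.26 (2.44 ± 0.28). The gene for brain creatine kinase, ckbb, fell from 3847 and 4150 CPM in the others to 254 and 310 CPM in members (-3.47 ± 0.14). In the cytoskeleton list (15 higher and 11 lower of 35 tested), cryaba, a small heat shock gene, rose the most (17 and 15.3 CPM against 1.02 and 1.06, 4.30 ± 0.26), followed among named genes by stmn1a (1936 and 1653 CPM against 730 and 581, 1.81 ± 0.14) and TUBB4B (2621 and 2192 CPM against 1894 and 1803, 0.74 ± 0.11). The stress and early response list gave 7 higher and 12 lower of 23 tested. The same 27.2% and 35.8% of all features stand beside this list and the cytoskeleton list. The early response gene egr1 was lower (51.1 and 69.7 CPM against 678 and 1116, -3.53 ± 0.29), and 2 heat shock genes were higher but differed between libraries, with hsp90aa1.1 at 3081 and 4497 CPM against 1106 and 1540 (1.88 ± 0.24) and dnajb1b at 799 and 1832 CPM against 361 and 665 (1.72 ± 0.45). Both heat shock genes were higher in library 2 in members and in the others, and for dnajb1b the level of members in library 1 was close to that of the others in library 2.

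By number of features, markers of other cell types were mostly lower in members, beside 35.8% of all features called lower. Of tested neuronal markers 18 of 22 were lower, of microglial 9 of 10, of vascular and mural 14 of 15, of meningeal 7 of 8, of lymphocyte 4 of 6 and of Schwann cell markers 5 of 9. Of the 30 features of the neuronal list 7 and 5 were at 0 in members, and the list summed to 1225 and 1119 CPM against 3178 and 2877 in the others. The microglial list of 11 features summed to 121 and 193 CPM in members and to 816 and 1589 in the others, so that it was higher in library 2 in both. Its marker AIF1 was at 2.87 and 14.5 CPM against 65.1 and 176. Some listed genes were higher in members, namely zap70 of the lymphocyte list, whose other tested genes were lower or did not pass, NDUFA4L2 of the vascular list, at 4223 and 4625 CPM, ptgdsa of the meningeal list (0.68), SOX10, sox10 and pmp22a (1.12 ± 0.13) of the Schwann cell list, which oligodendrocytes share, and tubb5 (0.56), elavl3 (0.82) and the synuclein gene sncga of the neuronal list (35.2 and 20.8 CPM against 2.49 and 7.85, 2.79 ± 0.52). With them the vascular list summed to 4298 and 4690 CPM in members and 1694 and 1854 in the others. The lymphocyte list likewise summed to more in members, 147 and 173 CPM against 49.0 and 43.4. So did the Schwann cell list, at 833 and 843 CPM against 445 and 444. Astrocyte and radial glia genes gave 3 higher and 12 lower of 17 tested, with slc1a2b, a glutamate transporter gene, at 54.9 and 64.8 CPM against 1893 and 1893, gfap at 14.2 and 20.6 CPM against 501 and 503, and in the other direction the glutamine synthetase gene glula (feature ENSTRUG00000026147) at 1181 and 1208 CPM against 413 and 422 (1.88 ± 0.09) and the fatty acid binding protein gene fabp7a at 2736 and 3112 CPM against 2257 and 1753 (0.91 ± 0.14). The part of free RNA or of a second cell in a droplet in these low levels was not tested.

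Members were next compared with the below-gate barcodes, of which there were 413 and 371, to ask what the gate divides among barcodes with myelin transcripts. Besides hapln2, the groups differed in gjb1a, at 1957 and 1864 CPM below the gate against 3770 and 3888 in members. Differences between them can thus not be tied to hapln2 alone. Few features were called, 66 higher in members (0.516% of 12781 tested) and 52 lower (0.407%), together 0.923%, with 1270 at an unadjusted p under 0.05. With the library as a block 248 were higher and 148 lower, and leaving out 1 of the 4 sums gave 17 to 27 higher and 14 to 20 lower, each sum moving a count by over 1.5 times. The myelin genes plp1b, cd59a, mbpa and cldnk were not among them. The log2 fold change was 0.01 ± 0.53 for plp1b, 0.12 ± 0.50 for cd59a, -0.15 ± 0.43 for mbpa and -0.19 ± 0.30 for cldnk, with adjusted p-values of 1, 0.97, 0.95 and 0.91. These SEs rest on a spread shared over the 6 groups of the fit, not on members and below-gate barcodes alone. With SEs of this size moderate differences could not be told from none. For plp1b, at 79690 and 81080 CPM against 81183 and 86834, the sign of so small a value turned with the scaling.

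Genes that were higher in members than below the gate included heyl, a Notch target gene of the Hes and Hey family, at 101 and 125 CPM against 11.8 and 18.3 (2.99 ± 0.34, adjusted p = 0.00069), and the tetraspanin gene tspan7 (feature ENSTRUG00000009530) at 1167 and 1311 CPM against 242 and 303 (2.26 ± 0.22, adjusted p = 0.00024). Next by size were tmem221 (137 and 127 CPM against 32 and 31.3, 2.13 ± 0.21), the collagen gene col9a2 (77.7 and 160 CPM against 18.3 and 41.8, 2.07 ± 0.35) and gch1 (72.7 and 58.2 CPM against 20.2 and 16.7, 1.90 ± 0.25). Levels of members lay above both below-gate levels for each of the 5, and col9a2 was higher in library 2 in both groups. Also higher were OMG (2.07 ± 0.35), zap70 (1.85 ± 0.24), ptgdsb.1 (1.85 ± 0.28), the peptide hormone gene apln (1.83 ± 0.36), the bicarbonate transporter gene slc4a4a (1.09 ± 0.21) and TUBB4B (0.73 ± 0.14). The call was lost in 10 of 17 alternative fits for TUBB4B and in 7 of 16 for OMG. It was lost in 6 of 17 for apln, 5 for slc4a4a and 1 each for zap70 and ptgdsb.1. Of the genes higher in members here, tspan7 and heyl were not particular to the lineage, as astrocyte-like barcodes had 1787 and 1673 CPM and 124 and 80.3 CPM.

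Genes that were lower in members than below the gate included marcksl1b, which encodes an actin-binding substrate of protein kinase C, at 164 and 166 CPM against 820 and 667 (-2.10 ± 0.17, adjusted p = 7.2e-05). It was highest in gpr17-positive barcodes, at 4664 and 3434 CPM, and in barcodes positive for sema5a and c1ql4b, at 4462 and 4482 CPM. The largest falls also took in sash1a (46.5 and 49.5 CPM against 210 and 191, -1.99 ± 0.18), fabp7b (386 and 463 CPM against 1329 and 1412, -1.62 ± 0.22), tmem125b (-1.46 ± 0.28) and RASGEF1C (-1.34 ± 0.21). The tetraspanin gene cd82a, among the most abundant transcripts of members at 5277 and 5379 CPM against 14065 and 13115, was lower, with a log2 fold change of -1.28 ± 0.22 (adjusted p = 0.016). Its direction differed from that against all other barcodes, where it was 0.93 ± 0.10. The differentiation genes tcf7l2 (6.32 and 4.25 CPM against 24.4 and 26.6, -2.18 ± 0.35) and plekha1a (-0.97 ± 0.17) were lower too. Calls were lost in 6 of 17 alternative fits for tmem125b and for plekha1a, 5 for cd82a and 3 for tcf7l2. Losses were 2 for RASGEF1C and 1 for fabp7b. Of the 20 named genes called here, 6 passed in all 17 alternatives, among them heyl, tspan7, tmem221, sash1a and marcksl1b, 14 failed at least once and 0 changed sign. The gene lists held few calls here, with 0 higher and 1 lower of 24 for the myelin membrane, 0 higher and 0 lower of 36 for lipid enzymes and 0 higher and 0 lower of 20 for the cell cycle.

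**Figure D4:**
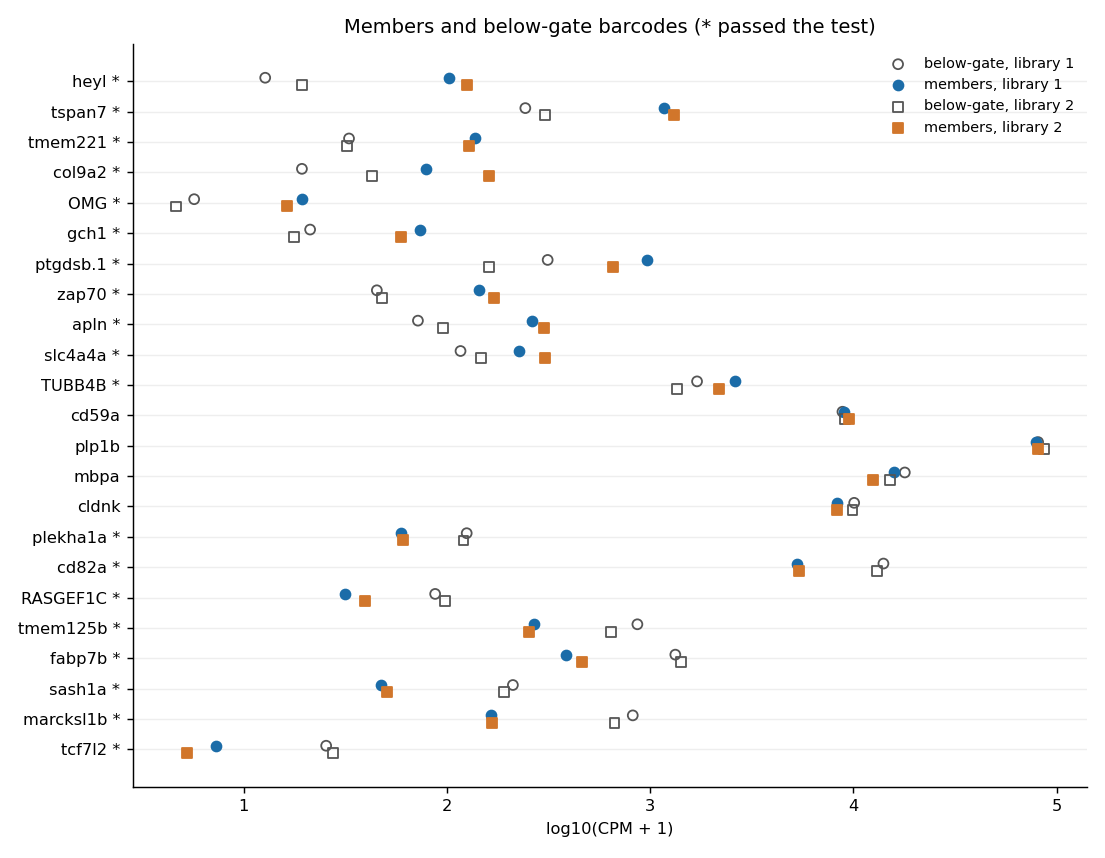
Level as log10(CPM + 1) (x axis) of the genes named for the comparison of members (filled) with below-gate barcodes (open), circles for library 1 and squares for library 2, ordered by log2 fold change (y axis). An asterisk marks genes that passed the test. Filled and open points lie apart for heyl, tspan7 and marcksl1b and together for plp1b, mbpa and cd59a.

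Since deeper barcodes pass a UMI gate more easily, barcodes with at least 5 UMIs of gjb1a and none of gpr17 were also thinned to 3000 UMIs each and set out by the hapln2 UMIs left. The class of 0 UMIs held 294 and 259 barcodes and that of 8 or more 101 and 82, with median depths before thinning of 4880 and 4985 and of 8648 and 7201.5 UMIs. These levels are a description with no test, as hapln2 and its correlates come from the same barcodes. The other gate gene, gjb1a, rose along the classes too, from a mean of 6.97 and 6.74 UMIs to 16.2 and 16.5. The classes therefore do not separate hapln2 from gjb1a. The mean of cd82a ran from 34.6 and 36.3 UMIs at 0 UMIs of hapln2 to 10.6 and 11.4 at 8 or more, and it was lower in each class than in the one before in both libraries. The mean of tspan7 ran from 0.898 and 1.11 UMIs at 0 UMIs of hapln2 to 6.15 and 6.04 at 8 or more, and that of apln from 0.235 and 0.266 UMIs at 0 UMIs of hapln2 to 1.14 and 1.15 at 8 or more. Both were higher in each class than in the one before, as was ptgdsb.1, which ran from 1.16 and 0.618 UMIs at 0 UMIs of hapln2 to 4.33 and 2.89 at 8 or more. The mean of fabp7b ran down from 3.21 and 3.18 UMIs at 0 UMIs of hapln2 to 0.673 and 0.476 at 8 or more. By contrast plp1b varied little, from 251 and 273 UMIs at 0 UMIs of hapln2 to 244 and 253 at 8 or more, as did cd59a, from 26.4 and 28 UMIs at 0 UMIs of hapln2 to 27.8 and 30.9 at 8 or more. The mean of mbpa declined from 55.2 and 46.8 UMIs at 0 UMIs of hapln2 to 41.9 and 31.6 at 8 or more.

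**Figure D5:**
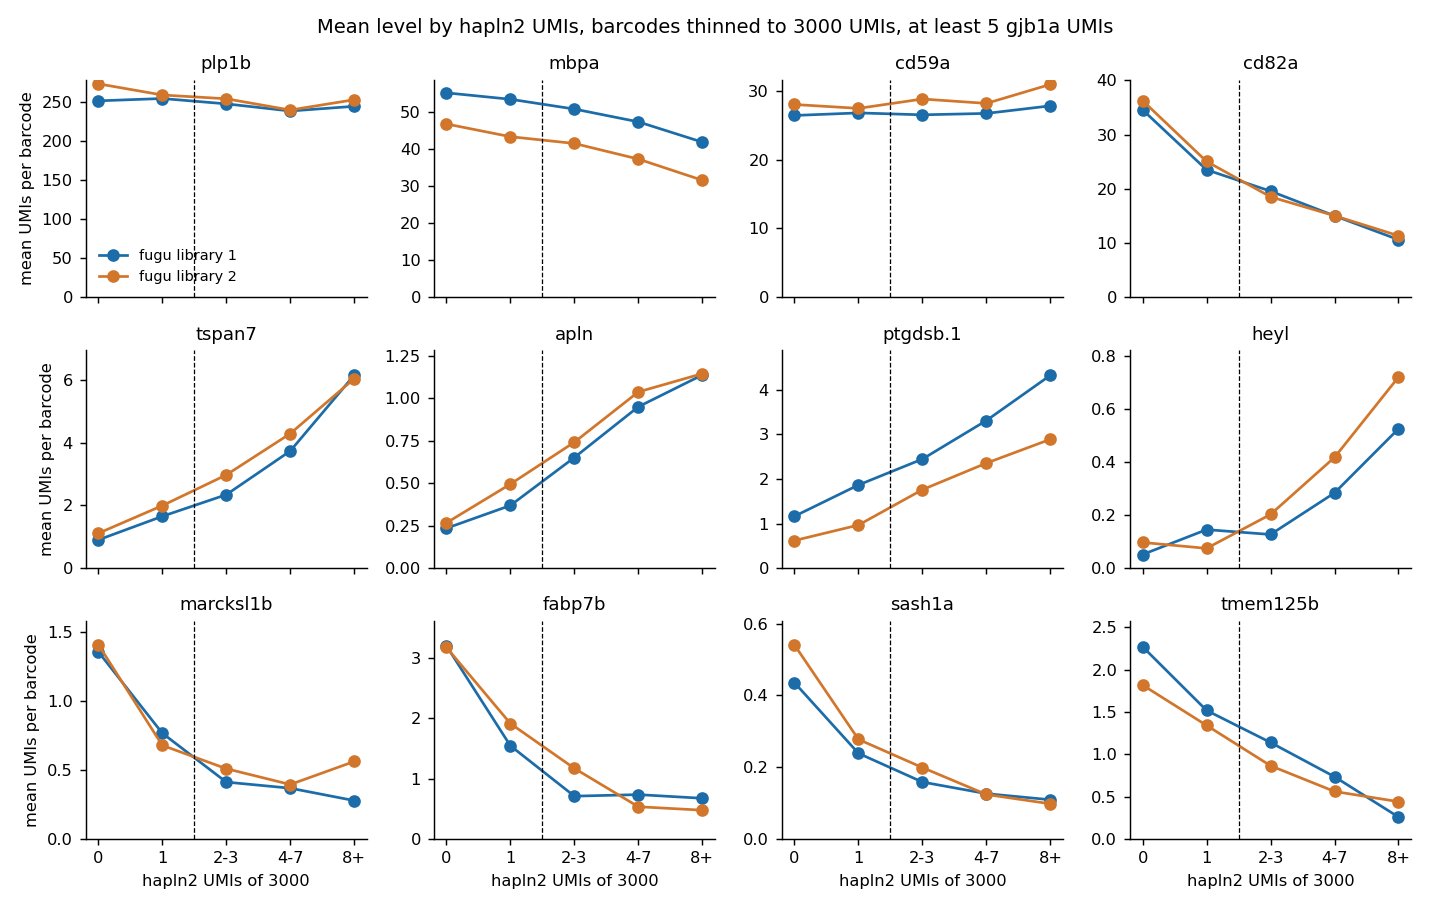
Mean UMIs per barcode (y axes) of 12 features in fugu barcodes with at least 5 UMIs of gjb1a, each thinned to 3000 UMIs, by the hapln2 UMIs left (x axes), with 1 line for each library. The dashed line stands between 1 and 2 UMIs. Means of cd82a fell from 34.6 and 36.3 to 10.6 and 11.4 across the classes, those of tspan7 rose from 0.898 and 1.11 to 6.15 and 6.04, and plp1b stayed between 238 and 273.

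Members were then set against 3 further groups, beginning with the 51 gpr17-positive barcodes (at least 2 UMIs, 32 and 19 in the libraries). They were taken to stand for the stage before maturity, and neither this order nor their purity was tested. Their microglial list summed to 70.9 and 526 CPM, beside 121 and 193 in members. In this comparison 2134 features were called higher in members (16.7% of 12781) and 1047 lower (8.19%), together 24.9%, and without 1 of the gpr17-positive sums the counts were 1318 and 658 (without library 1) or 1408 and 836 (without library 2). With library size alone the higher share of the calls went from 67.1% to 43.3%, and with RLE size factors to 51.9%, as the median of all features moved from 0.53 to 0.06 and 0.22. Myelin genes were much higher in members, with plp1b at 79690 and 81080 CPM against 4485 and 4289 (4.68 ± 0.62, adjusted p = 8.8e-05) and mbpa at 15800 and 12483 CPM against 725 and 395 (5.11 ± 0.53). The gpr17-positive levels of plp1b lay below those of barcodes of at most 100 UMIs (10796 and 10472 CPM) and above those of barcodes in none of the groups (1991 and 2158 CPM), and the part of free RNA in them was not tested. Features with 0 UMIs in gpr17-positive barcodes gave lower bounds against a floor of 3 UMIs over the group, at least 28.2-fold higher in members for the sulfotransferase gene sult2st3, 12.2-fold for mitfb, 11.4-fold for TMEM117 and 8.92-fold for sox13.

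Several regulators were far higher in gpr17-positive barcodes than in members. They were sox8 at 67.6 and 109 CPM against 2864 and 3243 (-4.63 ± 0.26), tcf7l2 at 6.32 and 4.25 CPM against 721 and 322 (-6.17 ± 0.33), prdm8b at 15.1 and 14.7 CPM against 700 and 421 (-4.78 ± 0.29) and sox2 at 20.5 and 21 CPM against 1209 and 1039 (-5.28 ± 0.30). The groups did not overlap for any of the 4. The matrix gene tnr (-5.84 ± 0.32) and the kinase gene FYN (-2.23 ± 0.15) were lower in members as well, and the largest falls were those of trpc4a (-7.32 ± 0.54), adamts16, kctd4, abtb2b and adma, the last seen in members as 1 UMI. One copy of cd59b (feature ENSTRUG00000022045) was at 2667 and 2927 CPM against 5560 and 5598, lower in members than in gpr17-positive barcodes (-0.52 ± 0.14). That call was lost in 3 of 16 alternatives, among them the one without library 1 of the members. By list, the counts were 11 higher and 5 lower of 24 for the myelin membrane, 17 higher and 1 lower of 36 for lipid enzymes, 6 higher and 0 lower of 19 for cholesterol synthesis and 0 higher and 14 lower of 20 for the cell cycle, with medians of 2.64, 1.62, 1.42 and -3.88. Fitted values of features with 0 UMIs in 1 group depend on the prior count of the fit, and with such features at the bound that 3 UMIs give the medians were 0.68, 1.09, 1.23 and -3.88.

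Against the 242 barcodes with at least 2 UMIs each of sema5a and c1ql4b, where pdgfra was at 2.31 and 8.02 CPM, 3262 features were higher in members (25.5% of 12779) and 2934 lower (23%), together 48.5%. Without library 1 or 2 of that group the higher count was 2129 or 2170. The higher share of the calls went from 52.6% to 28% with library size alone and to 41% with RLE, with the median of all features at 0.17, -0.42 and -0.10. Of ptgdsb.1 these barcodes held 1 UMI, and the level of members was higher by a ratio of 1221 (95% counting interval 219 to 48249). For kcnk5b they held 0 UMIs, so that members were at least 32.6-fold higher. The precursor factor olig1 was at 95.7 and 88.3 CPM there and was seen as 2 UMIs in members. The matricellular gene ccn2a (3.83 and 3.4 CPM against 1165 and 2076, -8.19 ± 0.61) and the parvalbumin gene pvalb5 (6.12 and 2.55 CPM against 1233 and 923, -7.33 ± 0.30) were among the largest falls, and sox8 was at 1032 and 977 CPM against 67.6 and 109 CPM in members (-2.91 ± 0.25). The factor SOX10, by contrast, was present in all 3 of these groups. It was at 370 and 444 CPM in members, 292 and 362 CPM in gpr17-positive and 514 and 600 CPM in sema5a- and c1ql4b-positive barcodes. Whether the last group belongs to the oligodendrocyte lineage was not tested. Myelin membrane genes gave 17 higher and 4 lower of 24 tested and the cell cycle 1 higher and 19 lower of 20.

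Against the 683 astrocyte-like barcodes (at least 5 UMIs of slc1a2b and 1 of SLC6A11), 3092 features were higher in members (24.2% of 12779) and 3182 lower (24.9%), together 49.1%, the higher share going from 49.3% to 36.5% with library size alone and to 38.1% with RLE, with the median at 0.08, -0.18 and -0.15. The largest rises included those of cd59a (9035 and 9545 CPM against 92.6 and 77.9, 7.03 ± 0.65), zap70 (6.98 ± 0.38), TMBIM1 (6.93 ± 0.36) and ABHD8 (6.89 ± 0.20). The largest falls included angpt2a (0.191 and 0.638 CPM against 143 and 193, -8.30 ± 0.54), klf4 (-7.65 ± 0.71) and tnni4b.2 (-7.65 ± 0.44), beside slc22a21 and cxcl12a, seen in members as 2 and 3 UMIs. The copies of fabp7 divided these glia, as fabp7a was at 2736 and 3112 CPM against 125 and 171 (4.57 ± 0.19) and fabp7b at 386 and 463 CPM in members and 19513 and 18777 CPM in astrocyte-like barcodes. Both directions held in both libraries. For glutamine synthetase, known as an astrocyte enzyme, feature ENSTRUG00000026147 of glula was higher in members (1181 and 1208 CPM against 610 and 651, 1.19 ± 0.15, adjusted p = 1.2e-05). It was chosen as the feature of that symbol with the highest level in members. No other feature of the symbol is given here, so the value does not cover the enzyme as a whole. Of cholesterol genes 16 of 19 were lower in members here, with a median of -1.57.

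Variation among members is given as a description. Thinned to 3000 UMIs, 2030 features with a mean of at least 0.2 UMIs had a median dispersion index (variance over mean, 1 for counting alone) of 1.03 and 1.04, which counting error holds near 1 for features of so low a mean, and 41 features exceeded 2 in both libraries. The 10 with the largest index were the chemokine gene ccl19, plp1b, fosab, hsp90aa1.1, HSPA2, nprl3, fabp7a, mt2 (feature ENSTRUG00000020060) and the unnamed features ENSTRUG00000026260 and ENSTRUG00000029146. The index was 15.5 and 17.6 for ccl19, 13.9 and 15.1 for plp1b, 11.3 and 12 for fosab and 8.19 and 8.15 for fabp7a. Named heat shock genes had a Spearman's rho across members of 0.71 and 0.71 between hsp90aa1.1 and HSPA2 (n = 862 and 773 barcodes of thinned counts, which share their library) and of 0.43 and 0.49 between hsp90aa1.1 and dnajb1b. Opposed to them in sign was the pair cd82a and hapln2, with a rho of -0.40 and -0.37, and mbpa and hapln2 gave -0.24 and -0.25. The 2 gate genes gjb1a and hapln2 gave 0.41 and 0.39. These are descriptions over barcodes of 1 pool each, and gjb1a and hapln2 were used to choose the members.

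The gene modules that the study drew from its own cross-species analysis, with these fugu samples among its data, were counted as well and are not independent evidence of a direction. Of the module for mature oligodendrocytes in that scheme, which the files matched with 105 tested features, 74 were higher in members than in all other barcodes and 20 lower, with a median log2 fold change of 0.96. The other modules gave 23 higher and 43 lower of 92 tested, 8 higher and 36 lower of 53 and 15 higher and 24 lower of 53, with medians of -0.50, -1.69 and -0.34. Over all features 27.2% were higher and 35.8% lower, with a median of -0.04. Against below-gate barcodes the mature module gave 0 higher and 3 lower of 104 tested, with a median of 0.01.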

How the data were processed

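Live cells of the rostral spinal cord of juvenile fugu were sequenced with 10x Genomics 3′ chemistry in 2 libraries. Per the labels and the study's methods, the authors made the deposited UMI counts per feature and barcode with Cell Ranger 7.2.0 on a Takifugu rubripes reference, over all barcodes and before cells were called. Free RNA was not subtracted. The libraries held 1214749 and 1223695 barcodes, and those above 3000 UMIs carried 62.3% and 62.4% of all UMIs. The files name 15198 of 21383 features by symbol.

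Members and comparison groups were set by UMI counts of marker genes, in the order given in the report, and counts were summed per group and library. The members, gene lists, named genes and tests were chosen with earlier results of these data known. Below-gate barcodes that met the astrocyte-like definition were counted there, so slc1a2b, which set that group, is not reported between them. The members against all other barcodes were fitted as 4 sums and the other comparisons in 1 fit of 12 sums, with edgeR 4.0.16 (TMM, filterByExpr, quasi-likelihood test, Benjamini-Hochberg adjustment over all features) in R 4.3.3. SEs are the absolute log2 fold change over the square root of the F statistic. The genes of the gate, and those that set a comparison group, were left out of counts of calls. Libraries pair the groups, since all groups within 1 library share its pool of animals. Deviations from the group means correlated between members and the other groups by 0.141 to 0.335 over 12784 features. The tests were tested on simulated data, and Scrublet in scanpy 1.11.5 marked doublets at 0.8% per 1000 barcodes.

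Lists were matched to symbols without regard to case, alone or with a copy letter or number after it, and their counts and medians were set beside those of all features. Named are list members by level or change, the features of largest rise and fall (10 each against all other barcodes, with a UMI in at least 25% of members or 10% of the others, and 5 each against single groups, at 25%), the 10 of highest CPM and the 10 of largest dispersion index. Alternatives used DESeq2 1.42.0, RLE size factors, library size alone, other filters, a log2 threshold of 1, the library as a block, thinning to 3000 UMIs, doublet removal, other gates and a UMI minimum of 4500, and left out each sum in turn. Cell calling by the authors, their normalized data from Seurat 5.3.0, the mudskipper libraries and cross-species mapping were not used here. A few genes that the rule would name are not reported here.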

Additional observations from a re-analysis of the deposited data

Results flagged for a closer look

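Barcodes that passed the same gate were also present in the chicken libraries, which no comparison of the fugu members used. The chicken cords were embryonic, and GJB1, HAPLN2 and GPR17 were counted above UMI minimums of 5000 and 5500. In chicken library 1, 11 of 8158 barcodes passed (0.135%) and in library 2, 4 of 8293 (0.0482%), above the 0.0368% and 0.0362% that 3 barcodes would make. The chicken barcodes were deeper, with medians of 12336.5 and 12762 UMIs against 5399.5 and 5496 in fugu, and the gate was not adjusted for depth. The part of doublets or free RNA in these counts was not tested. Over all these barcodes GJB1 was at 7.91 and 7.26 CPM and HAPLN2 at 11.2 and 11.1 CPM.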

How the results depend on the processing

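The share of members of 31.5% was 33.6% with a UMI minimum of 4500, 31.5% without Scrublet's doublets, 31.9% with 3 UMIs of gjb1a and 30.1% to 33.0% within 1 library, but 27.5% with 10 UMIs of gjb1a, 36.9% with 1 UMI of hapln2, 22.5% with 4 and 24.7% with thinning before the gate. The cause of the changes that follow was not tested, beyond that filters, thresholds and omissions leave fewer features or sums by construction. Against all other barcodes the 3798 higher features were 2214 with library size alone, 2125 when only features detected in 10% or more of a group's barcodes were kept and 1816 at a log2 threshold of 1, and the 4985 lower features were 2269 with that 10% filter. Against below-gate barcodes the 66 higher and 52 lower features were 107 and 143 with DESeq2, 204 and 151 with no filter beyond 1 UMI, 77 and 84 with the 10% filter, 31 and 32 after thinning to 3000 UMIs and 92 and 88 at the minimum of 4500. With the replicate block they were 248 and 148, and the block moved no other count by over 1.5 times. With 1 sum left out they were 17 to 27 and 14 to 20. In 2 alternatives chosen after seeing the data they were 16 and 19 with the gate applied after thinning, and 43 and 30 with below-gate barcodes from 5 UMIs of gjb1a. Against gpr17-positive barcodes the 2134 higher features were 1234 with DESeq2, 1166 with library size alone, 1407 with the 10% filter, 1342 after thinning, 1255 with the gate after thinning and 1318 to 1756 with 1 sum left out. The 1047 lower ones were 629 after thinning, 454 with the gate after thinning and 658 to 908 with 1 sum left out. Against sema5a- and c1ql4b-positive barcodes the 3262 higher features were 1709 with library size alone and 2129 to 2673 with 1 sum left out. Against astrocyte-like barcodes the 3092 higher features were 2031 at a log2 threshold of 1. The other counts stayed within 1.5 times.

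Named genes were picked by level or change in the main fits, so their stability does not stand for that of other features. Most of their calls held against all other, gpr17-positive, sema5a- and c1ql4b-positive and astrocyte-like barcodes. There 85 of 91, 18 of 20, 13 of 13 and 13 of 13 named calls held in every alternative that tested the gene. Against below-gate barcodes 6 of 20 did. Some alternatives left a gene untested, so that against all other barcodes mbpb had 15 alternatives and plp1b 18. A change of sign was seen in 11 of the values, all of plp1b and mbpa against below-gate barcodes, where neither passed. For plp1b, at 0.01, the log2 fold change was -0.082 with DESeq2 and with RLE, -0.064 with library size alone, -0.084 with the 10% filter, -0.051 after thinning, -0.0067 without doublets, -0.069 with the gate after thinning, -0.089 with below-gate barcodes from 5 UMIs of gjb1a and -0.051 to 0.082 with 1 sum left out. For mbpa, at -0.15, it was -0.31 to 0.0012 with 1 sum left out.

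Only 2 pools of animals were sequenced, and 3′ UMI counts do not correct for free RNA. Barcodes below 3000 UMIs were not analysed here. The members were set by a count of few hapln2 UMIs, and their number moved with depth, as the thinned share shows. Features with few UMIs in 32 and 19 gpr17-positive barcodes carry the widest errors.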
